A study of Zea mays with 64 samples.

Results

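Wide sites are lines of a deposited table of Mu insertion sites whose 2 coordinates lie 100 bp or more apart. A wide site was kept if it had at least 1 count and was counted in fewer than 40 of 64 libraries. This left 4 sites of 1091553 in the table, and these 4 held 205 of all 11215254 counts. The sites were thus chosen by width, by the presence of a count and by the number of libraries, and these values are given as descriptions only. The rule counted libraries over both tissues, all families and the fathers together, and did not use how the counts fall among them.

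Mu elements are cut-and-paste DNA transposons of maize that carry long terminal inverted repeats and move when their transposase is expressed. A new insertion duplicates a short stretch of target DNA, so the flanks read from its left and right ends overlap by the length of that duplication. In a library of DNA next to Mu ends, flanks that lie far apart on the reference are a different kind of signal. An element that the reference already carries and an insertion with a rearranged end are the candidate origins for which wide sites are of interest. No genome of the build used by the authors was at hand, so whether a Mu element lies between the coordinates was not analysed here.

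The libraries came from leaf and endosperm of the same 30 kernels of the maize inbred W22. Each kernel came from an ear of a Mu-inactive W22 plant that received Mu-active W22 pollen. The kernels formed 4 families with a different father each: NE71 (father ND66-2, 8 plants), NE72 (father ND67-51, 7 plants), NE73 (father ND67-40, 7 plants) and NE74 (father ND67-35, 8 plants). Leaf came from the seedling grown from a chipped kernel, endosperm from the chip, and each father had 1 endosperm library. All families therefore shared the Mu-inactive W22 mother line, and no progeny library lacked a Mu-active father. Leaf DNA was purified on a column and endosperm DNA by a CTAB method, so tissue and extraction cannot be told apart.

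Total counts ran between 25037 and 687094 in leaf, between 5457 and 105320 in endosperm, and between 273277 and 610687 in the fathers. Levels are given as CPM, the count at a site per 1000000 counts of its library. Because a shallow library cannot show a level of a few CPM, a 0 is read as an upper limit, set at 3 counts. The exact 95% intervals given for pooled levels cover counting error only. The counts are not stated to be unique molecules.

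Of the 1091553 sites, 1091491 had coordinates exactly 8 apart, a span of 9 bp with both ends included. The other 62 were 37 narrow and 25 wide sites. The gap at the width limit was large: the widest site below it spanned 65 bp, in 63 libraries, the next 16 bp, and the narrowest wide site 889 bp. All 25 wide sites had the lower coordinate written first, against 5 of the narrow sites. The wide sites were thus set apart in the table by the order of their coordinates as well as by distance.

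Most wide sites failed the limit on libraries. The 4 kept sites were counted in 1 to 22 libraries, whereas the other 21 were counted in all 64, and no wide site lay between. Those 21 held 3012070 counts, or 26.9% of the table, with totals of 4381 to 207810 per site. The 4 kept sites held 0.00183%. Of these 4, 0 were in the authors' list of 1058 transmitted insertions. Of the other 21, 19 were in it, and all 19 were listed there for the Mu-inactive parent. The 4 kept sites shared the coordinate order of the other wide sites and lay within their range of widths, at totals below all of theirs.

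**Figure D1:**
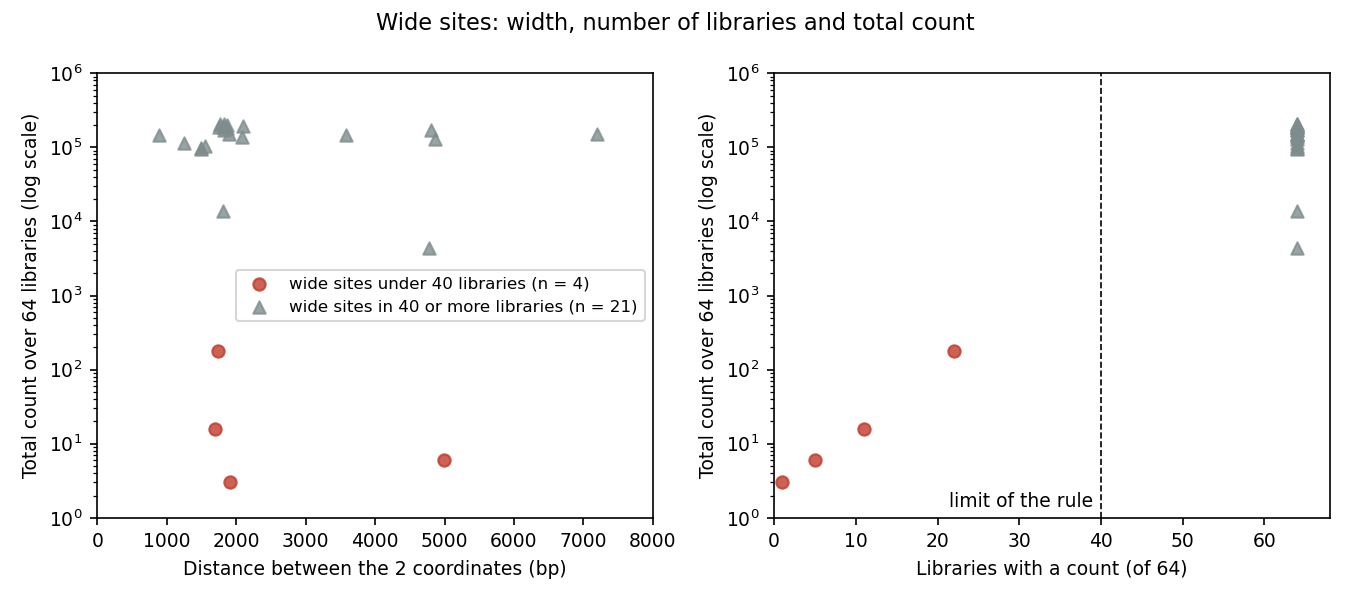
Total count over 64 libraries (log scale) against the distance between the 2 coordinates in bp (left) and against the number of libraries with a count (right). Each point is a site: 4 circles are the wide sites in fewer than 40 libraries and 21 triangles the other wide sites. The circles lie at 3 to 180 counts and in 1 to 22 libraries, the triangles at 4381 counts or more and in all 64.

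By width, 3 kept sites spanned 1000 to under 2000 bp and 1 spanned 2000 to under 5000 bp. No kept site fell in the classes under 1000 bp (100 to under 200, 200 to under 500 and 500 to under 1000 bp) or in the class of 5000 bp or more. The other 21 had 1 site of 500 to under 1000 bp, 13 of 1000 to under 2000 bp, 6 of 2000 to under 5000 bp and 1 above that. Chromosome 2 held 2 kept sites, and chromosomes 4 and 10 held 1 each. Chromosome 2 also held the most of the other wide sites, 7 of 21. All 4 kept widths differed from each other.

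The kept site with the most counts was chr10:24137902-24139637, in the coordinates of the deposited table, whose genome build is not given in the sources used here. It spanned 1735 bp and held 180 of the 205 counts, or 87.8%. It was counted in 16 of 30 leaf libraries with 169 counts, in 2 of 30 endosperm libraries with 2 counts, and in all 4 father libraries with 9 counts. The pooled level was 21.0 CPM in leaf (18.0 to 24.4), 1.56 CPM in endosperm (0.189 to 5.62) and 4.78 CPM in the fathers (2.18 to 9.07). The leaf to endosperm ratio of the pooled levels was 13.5, with an exact interval of 3.68 to 112. Per library the level averaged 14.7 ± 19.3 CPM in leaf and 1.36 ± 5.70 CPM in endosperm (SD, n = 30 each), and 5.38 ± 2.42 CPM in the fathers (n = 4). The intervals of leaf and endosperm did not meet, but the SDs exceeded the means in both tissues.

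In NE74 leaf the chromosome 10 site had 15, 18, 16, 6, 2, 12 and 22 counts in plants 2 to 8, and 0 of 303286 in plant 1. In NE72 leaf it had 7, 7, 20, 6 and 16 counts in plants 1, 2, 3, 5 and 9, with 0 of 312329 in plant 4 and 0 of 25037 in plant 8. In NE71 leaf it had 17, 1 and 3 counts in plants 2, 4 and 5, and 0 in the other 5 plants. Counts were thus spread over most plants of NE74 and NE72, and in NE71 rested mainly on plant 2. In NE73 leaf 1 count was found in plant 8 and 0 in the other 6 plants, 1 of which had a depth of 338457. The family means were 11.1 ± 25.1 CPM in NE71 leaf (n = 8), 17.3 ± 15.5 CPM in NE72 leaf (n = 7), 1.03 ± 2.72 CPM in NE73 leaf (n = 7) and 28.2 ± 16.9 CPM in NE74 leaf (n = 8). The ranges of all 4 families overlapped, because each family had at least 1 leaf library at 0.

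Endosperm showed the chromosome 10 site at 1 count in plant 7 of NE71 (29.5 CPM) and at 1 count in plant 4 of NE73 (11.4 CPM). It was at 0 in the other 28 endosperm libraries. The pooled endosperm of NE74 had 0 of 406489 counts, which allows up to 7.38 CPM, against 30.8 CPM in pooled leaf of the same plants. For NE72 it was 0 of 177787, which allows up to 16.9 CPM, against 21.0 CPM in leaf. In both families the limit on endosperm lay below the pooled leaf level. In NE72 it lay close to the mean over leaf libraries, 17.3 ± 15.5 CPM (SD, n = 7), so no difference is read there.

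No plant had a count at this site in both tissues: 16 had it in leaf only, 2 in endosperm only and 12 in neither. Most single plants could not show a difference, since 3 counts corresponded to 28.5 to 549.8 CPM in endosperm. In 2 plants the leaf level lay above that floor. Had each endosperm held the level of its own leaf, 25.4 endosperm counts would have been expected over the 30 plants. The largest part, 7.62 counts, would have come from NE71 plant 2, and plants with 0 in leaf add none. The 2 counts observed were both in plants with 0 in leaf.

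Leaf level also moved with leaf depth. The 15 deeper leaf libraries (251043 to 687094 counts) held 148 counts of the chromosome 10 site, or 24.8 CPM (21.0 to 29.2), and 12 of the 15 had a count. The 15 shallower ones (25037 to 235581 counts) held 21, or 10.1 CPM (6.24 to 15.4), with a count in 4 of 15. Of these 21, 17 came from NE71 plant 2, and without that library the shallower ones held 4 counts, or 2.16 CPM (0.589 to 5.54). That library, the highest in leaf at this site, was left out after seeing the data. None was left out of the deeper libraries, so the 2.16 CPM is not set against their level. Depth and family moved together: 7 NE74 and 6 NE72 libraries were among the deeper ones, against 1 each of NE71 and NE73. The part of depth in the family differences was not tested. The fathers, with depths in the range of the deeper leaf libraries, had 2, 2, 3 and 2 counts (fathers of NE71, NE72, NE73 and NE74), which is 7.32, 3.28, 7.63 and 3.30 CPM. NE74, with the highest leaf mean, and NE73, with the lowest, had fathers at 3.30 and 7.63 CPM, on 2 and 3 counts.

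**Figure D2:**
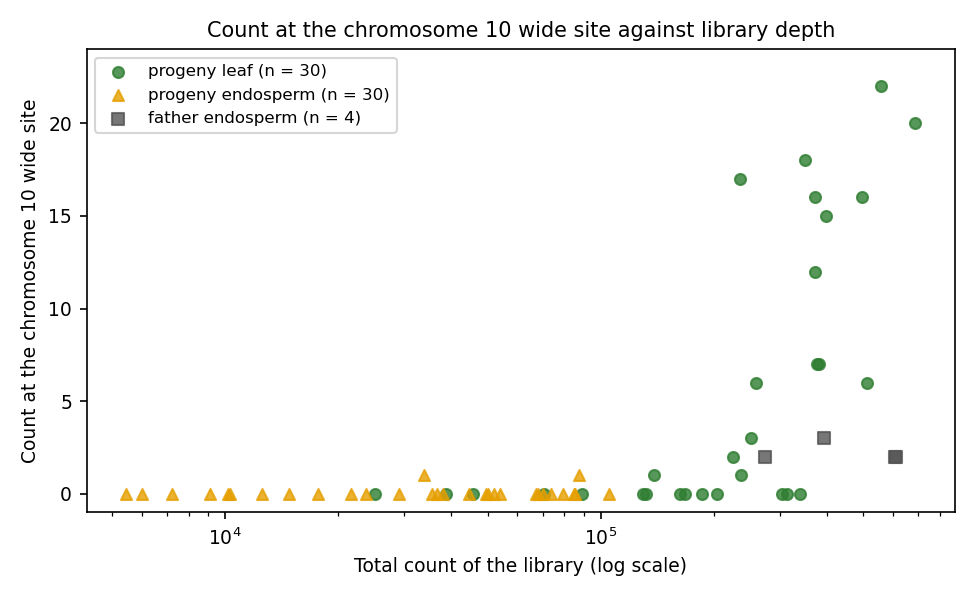
Count at the chromosome 10 wide site against the total count of the library (log scale), with 1 point per library: 30 progeny leaf, 30 progeny endosperm and 4 father endosperm libraries. The deeper leaf libraries reach up to 22 counts, and the fathers at like depth have 2 or 3. Of the progeny endosperm libraries, 2 have 1 count, at depths of 33911 and 87730.

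Between the coordinates of the chromosome 10 site there were 9 narrow sites with 10 counts in all, a density of 5.18 per kb. The density was 0.513 per kb over the whole table. Inside the other 21 wide sites it had a median of 8.97 per kb (0 to 192), so the chromosome 10 site lay below their median. Within 200 bp of the first coordinate there were 6 sites with 7 counts, and within 200 bp of the second there were 7 with 12 counts. Of the 1091512 sites under the limit on libraries, 679, this site included, were counted in 22 or more.

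The second kept site by level, chr2:205351633-205353327, spanned 1694 bp and held 16 counts in 11 libraries, at most 3 in any. It had 11 counts in 8 leaf libraries (1.37 CPM pooled, 0.682 to 2.45), 3 counts in 2 endosperm libraries (2.34 CPM, 0.482 to 6.83) and 2 counts in the father of NE72. The leaf to endosperm ratio was 0.585 with an interval of 0.155 to 3.27, so no difference of tissue was detectable at this depth. In leaf, NE74 had 1 count in each of plants 3, 4, 5 and 7 and 2 in plant 8, NE72 had 3 in plant 2, NE71 had 1 in each of plants 4 and 6, and NE73 had 0. In endosperm, plant 1 of NE72 had 2 counts (84.5 CPM in a library of 23657) and plant 4 of NE74 had 1. Plant 4 of NE74 was the only plant in which the same kept site was counted in both tissues.

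This chromosome 2 site lay among many narrow ones. Between its coordinates were 61 narrow sites with 142 counts, a density of 36.0 per kb. That was above the chromosome 10 site and within the range of the other 21 wide sites (0 to 192 per kb). Near the 2 ends the narrow sites were uneven. Within 200 bp of the first coordinate, to either side, lay 20 sites with 85 counts, counted in up to 17 libraries. Within 200 bp of the second lay 3 sites with 3 counts. Most of the 61 sites between the coordinates lay farther than 200 bp from both ends.

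The widest kept site, chr4:181228494-181233486, spanned 4992 bp and held 6 counts in 5 libraries. There was 1 count in leaf of NE71 plant 2, NE72 plant 5 and NE74 plant 1, 2 counts in leaf of NE74 plant 8, and 1 in the father of NE71. Pooled leaf was at 0.621 CPM (0.202 to 1.45). Endosperm had 0 of 1284528 counts, which allows up to 2.34 CPM, above the leaf level. Here too the narrow sites near the 2 ends were uneven, with 25 sites and 93 counts within 200 bp of the first coordinate and 0 within 200 bp of the second. Between the coordinates there was 1 narrow site with 1 count.

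The last kept site, chr2:26569131-26571046, spanned 1915 bp and was counted only in the father of NE73, with 3 of 393329 counts (7.63 CPM, 1.57 to 22.3). In the progeny of that father it had 0 of 1003815 leaf counts, which allows up to 2.99 CPM, and 0 of 307742 endosperm counts, which allows up to 9.75 CPM. No narrow site lay between its coordinates or within 200 bp of either. The other 3 kept sites were each counted in more than 1 family.

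**Figure D3:**
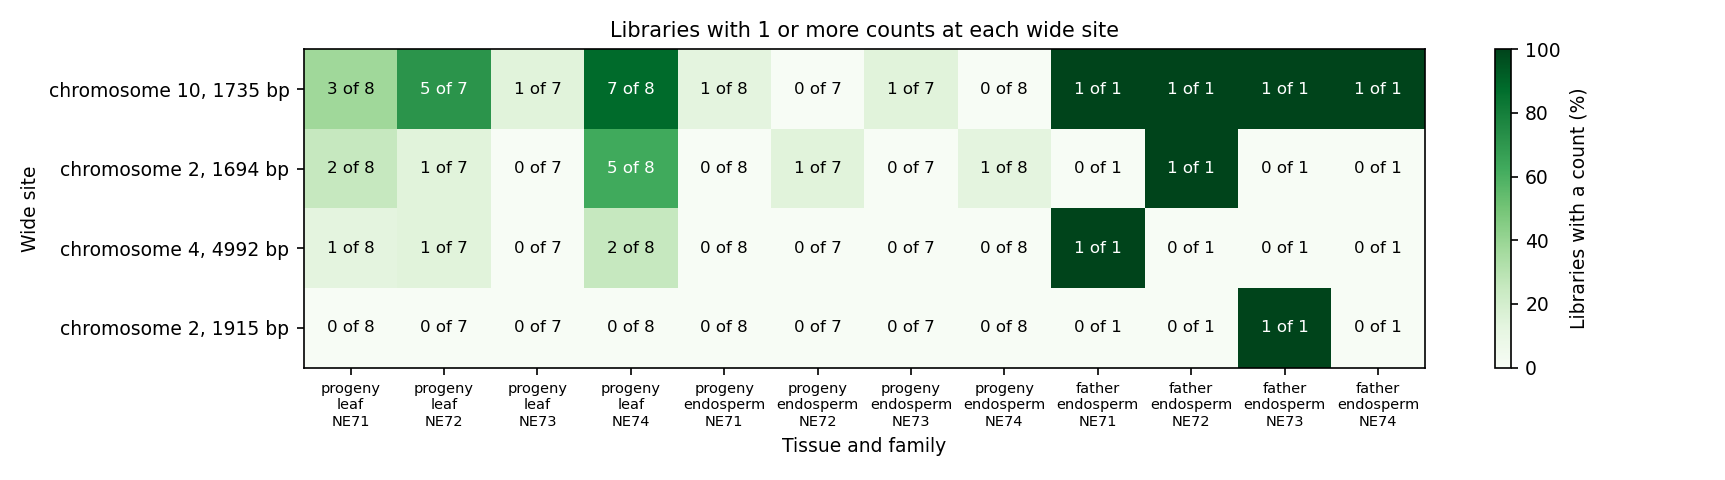
Libraries with 1 or more counts at each of the 4 kept wide sites (down the page), by tissue and family (across), as the number of libraries of the total and as a percent in colour. The chromosome 10 site has a count in 7 of 8 NE74 leaf libraries and in all 4 fathers, and the 1915 bp site in the father of NE73 alone.

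A kept site was counted in 26 of 64 libraries: 18 leaf, 4 endosperm and 4 father libraries. The largest number was 3, in leaf of NE74 plant 8. Whether leaf and endosperm of the same plants differed was tested over the 30 pairs. The 4 sites together took 16.3 ± 20.3 CPM in leaf and 4.57 ± 16.2 CPM in endosperm, a difference of 11.8 ± 26.3 CPM (SD, n = 30). Leaf was higher in 17 plants, lower in 3 and equal in 10, and a two-sided sign-flip permutation test gave p = 0.0193. A deeper library shows a low level more often, so signs lean to leaf at equal level too, here and by family. The part of depth in them was not tested. The test also takes differences as symmetric around 0, which unequal depths do not ensure. A split by site was unplanned, and the chromosome 10 site was singled out for its counts, 169 of 180 of them in leaf. Its own p is therefore given as a value and not as support. The chromosome 10 site alone gave a difference of 13.4 CPM (permutation p = 0.00082), and the other 3 gave -1.61 CPM (p = 0.977). NE72 plant 1, with 2 counts in a shallow endosperm library, set that sign and most of the endosperm mean. This plant was picked after seeing the data and held 2 of the 3 endosperm counts at these 3 sites. Without this plant the other 3 gave 1.25 CPM (permutation p = 0.0481), which is therefore not read as support. The 4 together then took 16.3 CPM in leaf and 1.82 CPM in endosperm (n = 29). Without NE74 the difference was 5.33 CPM and no longer passed the permutation test (p = 0.368).

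By family, the kept sites took 30.9 ± 17.5 CPM in NE74 leaf and 1.47 ± 4.15 CPM in NE74 endosperm. Leaf was higher in 8 of 8 plants (exact sign-flip p = 0.00781, the smallest that 8 plants allow, adjusted p over 4 families 0.0313). In NE74 plant 1 this rested on 1 leaf count, at the chromosome 4 site (3.30 CPM). In the endosperm of that plant 3 counts corresponded to 170 CPM. Without this single count the plant would be equal in both tissues, and 7 plants allow no exact sign-flip p below 0.0156. Adjustment over 4 families multiplies the smallest p by 4, so the adjusted call depended on this single count. In NE71 the kept sites took 13.1 ± 26.1 CPM in leaf and 3.69 ± 10.4 CPM in endosperm (exact sign-flip p = 0.562). In NE72 they took 18.7 ± 15.7 CPM in leaf and 12.1 ± 32.0 CPM in endosperm (exact p = 0.625). In NE73 they took 1.03 ± 2.72 CPM in leaf and 1.63 ± 4.31 CPM in endosperm (exact p = 1). The leaf excess passed the test in NE74 alone, and there only with the single count of plant 1. The families were not shown to differ in it: a permutation test of the paired difference across families gave F = 2.02 and p = 0.132.

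Leaf libraries are deeper, so the number of kept sites counted was also compared after bringing the deeper library of each plant to the depth of the shallower one. At equal depth 0.400 ± 0.482 kept sites were expected per leaf library and 0.127 ± 0.330 per endosperm library, a difference of 0.273 (n = 30, sign-flip permutation p = 0.0155). Leaf was higher in 17 plants, lower in 3 and equal in 10. Only NE72 plant 1 and NE74 plant 4 had kept-site counts in both tissues. In the other plants depth matching could not change the sign, so this split is not separate support. The difference was 0.0174 without the chromosome 10 site (permutation p = 0.762) and 0.137 without NE74 (permutation p = 0.272), so it rested on that site and that family. As a share of all counted sites under the limit on libraries, kept sites made up 0.00425% in leaf and 0.00364% in endosperm, a difference of 0.000610 percentage points (permutation p = 0.828). The share of kept sites among the sites seen was thus not shown to differ.

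In leaf, the level of the kept sites differed across families (F = 3.56, permutation p = 0.0241). Of the 6 pairs of families, NE74 minus NE73 was 29.9 CPM and passed the exact permutation test after adjustment over the 6 (adjusted p = 0.0103). NE72 minus NE73 was 17.6 CPM (adjusted exact p = 0.0629), and the other pairs had adjusted exact p of 0.201 or more. Without the chromosome 10 site the families were not shown to differ (F = 1.71, permutation p = 0.182). The call was also lost without NE74 (F = 1.73, permutation p = 0.186) and without NE73 (F = 1.58, permutation p = 0.231). Without NE74 plant 3 or plant 8 the permutation p was 0.0547 and 0.0505. In endosperm no difference across families was found (F = 0.655, permutation p = 0.795).

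Whether a kept site of an endosperm library recurred in the leaf of the same kernel could be asked in 4 plants only. A kept site was counted in 4 endosperm libraries, and in 1 of these (NE74 plant 4) the own leaf held it as well. Of the narrow sites in these 4 endosperm libraries, the own leaf held 5.73% in NE71 plant 7, 13.2% in NE72 plant 1, 5.07% in NE73 plant 4 and 11.2% in NE74 plant 4. Sharing with the own leaf minus sharing with leaves of other plants of the family was -8.33 percentage points (n = 4, exact sign-flip p = 0.75, where 0.125 is the smallest possible). For wide minus narrow sites the same quantity was -10.7 percentage points (exact p = 0.625). With 4 plants neither test could have reached 0.05.

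The fathers carried the kept sites only at low level. No father held a kept site at 10 counts and 100 CPM, the level set for presence in a father, so transmission could not be computed at that level. At 3 counts the father of NE73 held 2 kept sites, both at 7.63 CPM. Of these, 0% reached 3 counts in leaf of the 7 NE73 plants, against 3.30% of the 1414 narrow sites of that father. In those leaf libraries 3 counts corresponded to 8.86 to 77.7 CPM, above the level in the father. The narrow sites were not matched in level, and 63 of them stood at 10 counts and 100 CPM or more in the father. The 0% therefore cannot tell whether the 2 sites were passed on.

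A test per site across the whole table, with edgeR's quasi-likelihood test on sites with 10 counts in at least 6 libraries, covered 211 sites. It called 62 of them between leaf and endosperm (29.4%), with 23 higher in leaf (10.9%). Of the 4 kept sites only the chromosome 10 site passed the filter. All 8 of its libraries with 10 or more counts were leaf, so it could enter the test only by being high in leaf, and its call is given as a value and not as support. Its log2 leaf over endosperm was 3.04 ± 0.62 (SE, edgeR adjusted p = 0.000654). Of the other 21 wide sites, 19 were called lower and 1 higher in leaf, with a median log2 of -0.45, against -0.0018 over all 211 sites. That split depended on scaling by library totals: with TMM factors 7 were called lower and 7 higher, with a median log2 of 0.05 against 0.48 over all 211. They took 27.8 ± 8.35% of the counts in leaf libraries and 37.9 ± 8.09% in endosperm libraries (SD, n = 30 each). The remainder, in which all other sites are counted, was 72.2% in leaf and 62.1% in endosperm, a ratio of 1.16, and its part in the leaf excess of the chromosome 10 site was not tested.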

How the data were processed

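Insertion sites were profiled by MuSeq2 in 64 libraries: DNA sheared to a mean of 1000 bp received an adapter, and DNA next to Mu was amplified, per the labels' protocols. The authors deposited raw counts per site and library and a list of insertions with other values, calls of 0 or 1 whose criteria are not stated. Bowtie2 is named in the submitters' processing notes, with its version and the genome build not given in the sources used here. Every column matched a library or parent, with 0 left unused. The members and tests were chosen with earlier results of these data known.

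CPM used each library's total deposited count. Tissues were compared by sign-flip permutation over plants (100000 resamples, exact within families), families by permuted labels, with Benjamini-Hochberg adjustment. edgeR 4.0.16 (R 4.3.3) was fitted to the counts with plant as a block and library totals as sizes, and DESeq2 1.42.0 was an alternative. Other values came from Python 3.11.15, numpy 2.4.6, pandas 2.3.3 and scipy 1.17.1. The scripts were tested on simulated data. Named sites were to be the 10 with the highest summed CPM and the leading site of each width class and family, so all 4 were named. No sequence or gene is given.

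The 2 tissues of a plant were matched through the plant numbers in the titles, since the series' design text calls them matched. Over 211 sites the correlation of a plant's 2 libraries was at least 0.787 (median 0.926), and each of the 30 endosperm libraries correlated best with its own leaf. No 2 libraries had identical counts. The endosperm of NE74 plant 7 had counts at 18 sites listed only for other families, and it had 0 counts at the wide sites analysed. The labels give no batch, and p-values measure the spread between plants.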

Additional observations from a re-analysis of the deposited data

Results flagged for a closer look

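In each set of libraries of the same tissue and family (and the 4 fathers), the library farthest from the others was compared with the spread of the set. Of 18 sets of a site and a group with any count, 12 had a library that stood apart, where chance would give about 1 in 20, but sets that are mostly 0 meet the rule whenever 1 library has a count. In 11 of the 12 it was the only library above 0, and 7 of the 12 were single counts.

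The 12th was the chromosome 10 site in NE71 plant 2 leaf, at 72.30 CPM from 17 counts, whereas the other 7 NE71 leaf libraries lay between 0 and 11.95 CPM. The chromosome 10 site also stood apart in NE73 plant 8 leaf (7.20 CPM, 1 count), in NE71 plant 7 endosperm (29.5 CPM, 1 count) and in NE73 plant 4 endosperm (11.4 CPM, 1 count).

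The 1694 bp site on chromosome 2 stood apart in NE72 plant 2 leaf (7.89 CPM, 3 counts), in NE72 plant 1 endosperm (84.5 CPM, 2 counts), in NE74 plant 4 endosperm (11.8 CPM, 1 count) and in the father of NE72 (3.28 CPM, 2 counts). The chromosome 4 site stood apart in NE71 plant 2 leaf (4.25 CPM, 1 count), in NE72 plant 5 leaf (1.95 CPM, 1 count) and in the father of NE71 (3.66 CPM, 1 count). The 1915 bp site on chromosome 2 stood apart in the father of NE73 (7.63 CPM, 3 counts).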

How the results depend on the processing

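The 4 sites were the same at a width minimum of 200 or 1000 bp and without listed sites. With no limit on libraries the 21 other wide sites set every value: leaf minus endosperm was -101071 CPM (permutation p = 1e-05, the smallest possible), 0.220 sites at matched depth (p = 0.0655) and -0.683 percentage points of counted sites, and endosperm differed across families (F = 70.2). Without the chromosome 10 site these were -1.61 CPM and 0.0174 sites (permutation p = 0.762), and leaf F across families was 1.71. Without NE72 plant 1 as well, the first was 1.25 CPM (permutation p = 0.0481), an alternative chosen after seeing the data, as were those on single sites and plants. Without NE74 they were 5.33 CPM, 0.137 sites (permutation p = 0.272) and -0.00134 percentage points, and leaf F was 1.73 (p = 0.186). Without NE73 leaf F was 1.58 (permutation p = 0.231). With all counts the share of counted sites differed by -0.00141 percentage points. Leaving out each plant in turn gave 9.53 to 14.4 CPM (highest p 0.0373) and leaf F of 2.77 to 9.38 (p 0.00063 to 0.0547), the highest F without NE71 plant 2. Without NE71 the sharing differences were 3.17 and 0.439 percentage points (3 plants).

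The plant was the replicate block. With no replicate block the tissue differences were 11.8 CPM (permutation p = 0.0100), 0.273 sites (p = 0.0111) and 0.000610 percentage points (p = 0.827), and edgeR called 45 sites, the chromosome 10 site at log2 2.48. Pairing changed no call on the 4 sites.

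edgeR and DESeq2 counts of called sites moved by over 1.5 times under 4 settings. TMM factors gave 107 (88.8% higher in leaf, against 37.1% with library totals, as the median log2 shifted to 0.48). Requiring 10 counts in 3 libraries gave 112 (64.3% higher), and 1 count in 6 libraries gave 324 of 20138 (85.8% higher), with the median log2 at 0.88. DESeq2 gave 32 (3.13% higher), with a median log2 of -1.91, 118 of 211 sites at its dispersion limit and 135 without an adjusted p. The chromosome 10 site was at 3.30 under TMM and at 0.07, with no adjusted p, under DESeq2. It was not tested without NE74. The comparison of fathers' wide and narrow sites had no value at the presence level set, and the alternatives that keep that minimum or raise it have none either. Depth limits the 3 sites with 25 counts together to a description.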
